A study of Homo sapiens with 27 samples.

Results

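The 351 antisense long noncoding RNAs (lncRNAs) that U2OS cells expressed above a mean of 1 FPKM were followed across nuclear, cytoplasmic/ER and total RNA, with and without depletion of the nuclear pore protein TPR. They are the genes annotated as lncRNA whose symbol ends in -AS and digits and whose FPKM (fragments scaled to transcript length and library size) averaged above 1 over all 27 libraries, EPB41L4A-AS1 left out. The table held 1758 lncRNA genes with such a symbol, of which 1406 averaged 1 FPKM or less and 278 were listed at 0 throughout. The members made up 351 of the 14611 genes tested and of the 34464 genes in the table. Just inside the threshold were SOCS2-AS1, TAF1A-AS1 and SBNO1-AS1 with mean FPKM of 1.0006, 1.0089 and 1.0114, and just outside were SH3BP5-AS1, NAV2-AS6 and ZFHX2-AS1 with 0.9999, 0.9951 and 0.9927.

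U2OS is a human osteosarcoma cell line. The cells were treated for several days with lentiviral delivered shRNAs, either a scrambled control or one of a pair of separate shRNAs against TPR, called TPR A and TPR D. Each culture was lysed with detergent into a nuclear and a cytoplasmic/ER fraction, part of the cells was kept as total RNA, and poly(A)+ RNA was sequenced, in 3 replicates for each of the 9 combinations of shRNA and fraction. The question was which RNAs depend on TPR to leave the nucleus. All cultures carried a lentiviral shRNA, and p-values measure the spread between these libraries, since no source says how far apart the replicates were grown.

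An antisense lncRNA is transcribed from the DNA strand opposite a protein-coding gene and is named after that gene. Most are made by RNA polymerase II, capped, spliced and polyadenylated like mRNAs, and many start at the shared promoter region of the sense gene and run away from it. Spliced RNAs leave the nucleus through pores after packaging with the export receptor NXF1, and TPR is the filament protein of the basket on the nuclear side of the pore, where it also anchors the TREX-2 export complex.

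FPKM of single libraries are given after scaling the libraries to one another. TPR mRNA was at 28.2, 24.3 and 25.9 FPKM in the control total libraries, at 4.49, 3.55 and 4.86 in TPR A and at 3.39, 4.9 and 6.30 in TPR D. No depleted library overlapped the control, and the mRNA fell by 2.44 (SE 0.36) on the log2 scale with TPR D (limma adjusted p = 0.0016) and was lower with TPR A as well (adjusted p = 0.0012). The mesenchymal markers VIM (854 to 2662 FPKM) and SPARC (269 to 949) were high in all libraries, whereas the osteoblast markers SP7 and BGLAP stayed at or below 0.286 FPKM and the leukocyte, endothelial and hepatocyte markers PTPRC, CD74, CDH5 and ALB at or below 1.22. RUNX2, COL1A1, CDH2 and ALPL were present (lowest library 1.02 FPKM), COL1A2 was at or below 0.744 and CDH1 at or below 1.67, EPCAM ran from 1.43 to 6.87 FPKM and the epithelial keratin KRT8 from 281 to 2319. In 2 libraries the content went against the label. Transcripts of the mitochondrial genome, which mark cytoplasm, took 21.8% of all FPKM in the library labelled control nuclear replicate 2 against 0.77 to 2.42% in the other nuclear libraries, and 0.738% in the library labelled control total replicate 2 against 15.8 to 24.7% in the other total libraries. The first value lay in the range of the total libraries and the second just below that of the nuclear libraries. Such values would arise if the 2 labels were exchanged, which the labels cannot settle and which was not tested. The labels were used as given, and the main results that rest on them are given also without control replicate 2, which leaves out all 3 of its libraries. In bulk RNA, fewer cells with a transcript and less of it per cell cannot be told apart.

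The antisense lncRNAs were short, weakly expressed genes. Their median level was 2.86 FPKM, with 130 members under 2 FPKM and 106 over 5, and 13 were listed at 0 in at least 1 library. In GENCODE 44, the annotation used here, the median member spanned 8612 nt of genome, had 3 exons and gave a mature transcript of 896 nt. In 37 members the median transcript was shorter than 500 nt, where the effective length in FPKM is small and values are less certain. On a transcript of 1 kb effective length, 1 FPKM corresponded to about 46.2 to 62.3 reads in the nuclear libraries, 32.4 to 48.9 in cytoplasmic/ER ones and 41.6 to 90.1 in total ones, as judged from the steps between low values. These depths limit what can be said of the weakest members.

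Of the 351, 149 overlapped the sense gene head-to-head, 109 were nested (one gene inside the span of the other), 61 overlapped tail-to-tail, and 20 lay head-to-head without overlap. Another 3 lay tail-to-tail without overlap, 3 were on the same strand as the gene they are named after, and 6 had no annotated partner. A protein-coding partner was annotated for 340 sense genes and tested for 272, giving 275 pairs. Reads can be shared: 55 members had over 25% of their 31-base words on the opposite strand of another gene, 6 had over 50% in another gene on the same strand, and 109 had under 5% on either. The library kit kept strand, but the strand setting of the counting is not given in the sources used here, so a member that overlaps its sense mRNA cannot be fully separated from it.

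Because the libraries were made from poly(A)+ RNA, the last 50 bases of the longest annotated GENCODE transcript with a signal are shown for 6 members that the results below describe. The capitals mark the poly(A) signal hexamer, AATAAA or ATTAAA, nearest the 3′ end (overlapping matches included).
NUTM2B-AS1: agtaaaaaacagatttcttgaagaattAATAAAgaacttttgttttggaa
TMEM132D-AS1: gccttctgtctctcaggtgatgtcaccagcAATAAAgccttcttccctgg
PRR34-AS1: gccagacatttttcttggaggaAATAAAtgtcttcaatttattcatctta
FGD5-AS1: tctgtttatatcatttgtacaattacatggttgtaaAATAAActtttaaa
OIP5-AS1: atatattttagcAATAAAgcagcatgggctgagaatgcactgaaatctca
MCM3AP-AS1: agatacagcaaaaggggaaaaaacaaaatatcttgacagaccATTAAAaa
In these transcripts the hexamer ended 2 to 32 bases before the annotated end. At least 1 annotated transcript held such a hexamer in its last 50 bases in 279 of the 351 members (79.5%), against 63.3% of the other lncRNA genes and 88.9% of mRNA genes. Counted over transcripts, the share was 40.1% of the members' 3341 isoforms, 51% of those of other lncRNAs and 45.1% of mRNA isoforms, so members had many annotated ends without a hexamer.

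NUTM2B-AS1 was the most abundant antisense lncRNA, with a mean of 240.3 FPKM. It lies at chr10:81421150-81586350 on the minus strand of GRCh37 (the build of all coordinates here), and 52.1% of its 31-base words occur in another gene on the same strand; its paralog NUTM2A-AS1, at 39.6 FPKM, shares 50.8%, so the reads of the pair may have been divided between them. TMEM132D-AS1 followed with 161.8 FPKM, and PRR34-AS1, which has no annotated partner, with 77.2. The other 7 of the 10 most abundant were FGD5-AS1 (40.04 FPKM), SERTAD4-AS1 (40.02), MAGI2-AS3 (39.9), FAM131B-AS2 (39.6), NUTM2A-AS1, THUMPD3-AS1 (36.7) and DLGAP1-AS1 (34.8). In 49 of the 275 pairs the antisense lncRNA had a higher mean FPKM than its sense mRNA, and the median pair had a log2 level 2.15 lower for the antisense RNA.

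The first comparison was between the nuclear and the cytoplasmic/ER fraction of control cells, expressed as the log2 ratio N/C, where a value below 0 means a larger share of FPKM in the cytoplasm. Each fraction was scaled to its own library, so N/C ranks genes against the other genes and is not a count of molecules per compartment. The nuclear lncRNAs MALAT1 and NEAT1 had control N/C of 2.21 and 2.37. In control replicates 1, 2 and 3 the ratio was 1.27, 3.24 and 2.13 for MALAT1 and 1.77, 3.41 and 1.93 for NEAT1. Replicate 2 was thus the highest for both and raised their means. In TPR A, MALAT1 averaged 109 FPKM in total, 21.3 in nuclear and 8.61 in cytoplasmic/ER RNA. Its means were 167, 26.0 and 6.93 in TPR D and 74.2, 47.9 and 8.80 in control. The mean of NEAT1 was also highest in total RNA with each shRNA. In control replicate 2 the order was reversed for both RNAs. MALAT1 had 82.9 FPKM in the library labelled nuclear and 15.4 in that labelled total, and NEAT1 had 69.1 and 21.7. How fully the nuclear fraction kept such RNAs was not tested. The antisense lncRNAs lay on the cytoplasmic side. Their median N/C was −0.38 against −0.01 for all genes tested, −0.28 for the other lncRNAs, −0.51 for the long intergenic lncRNAs with LINC symbols and 0.16 for the sense mRNAs. In the 9 cultures the members' median ran from −0.62 to −0.25, and TPR A cells had a median of −0.42, TPR D cells −0.39. When control replicate 2 was left out, the control medians were −0.47 for the members, −0.31 for the other lncRNAs, −0.57 for the LINC lncRNAs and 0.15 for the sense mRNAs.

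**Figure D1:**
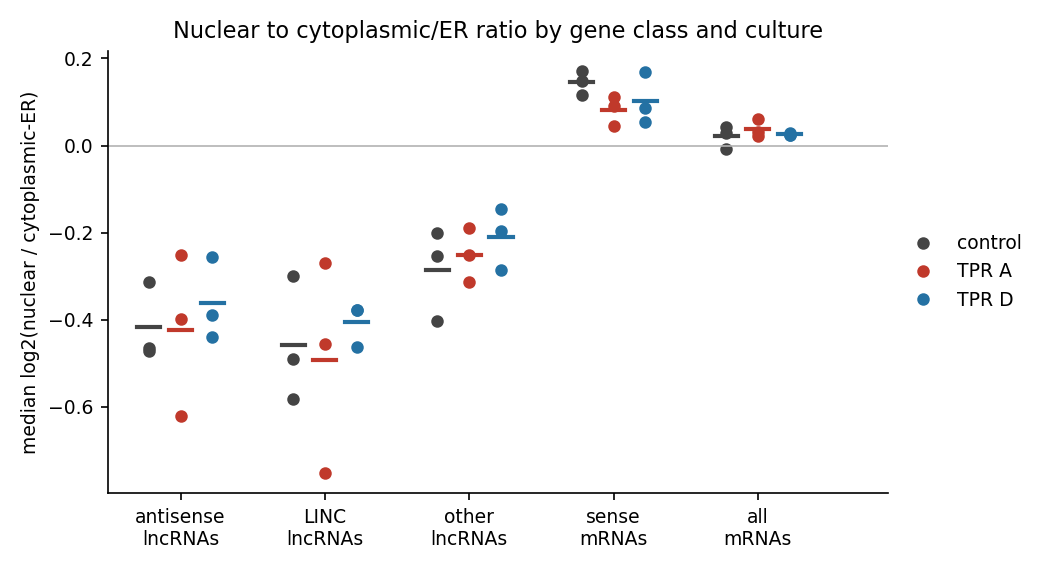
Median log2 N/C (nuclear over cytoplasmic/ER FPKM, vertical axis) of 5 gene classes in each of the 9 cultures, with 1 point per culture, coloured by shRNA, and a bar at the mean of 3 cultures. The antisense lncRNAs lie below 0 in every culture, from −0.62 to −0.25.

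In control cells 118 of the 351 members differed between the fractions (limma, Benjamini-Hochberg adjusted p below 0.05 over 14611 genes). Of these, 103 were higher in the cytoplasmic/ER fraction, 29.3% of the members against 19.2% of all genes tested, and 15 were higher in the nuclear fraction, 4.27% against 20.2% of all genes. Among the sense mRNAs 50 of 272 were called cytoplasmic and 73 nuclear, among the other lncRNAs 244 and 130 of 1338, and among the LINC lncRNAs 59 and 17 of 254. With TPR A, 72 members were cytoplasmic and 5 nuclear (13.2% and 15.2% of all genes), and with TPR D 60 and 14 (14.6% and 17.1%). Leaving out control replicate 2 gave control counts of 73 and 10, or 20.8% and 2.85% of the members against 14.2% and 15.6% of all genes.

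TMEM132D-AS1, a 441 nt spliced RNA nested in a gene for a neural membrane protein, was a highly expressed example. It had 65.5, 86.9 and 81.4 FPKM in the control nuclear libraries and 231, 278 and 282 in the cytoplasmic/ER libraries. Every cytoplasmic value was above every nuclear value, and N/C was −1.76 (SE 0.24, limma adjusted p = 1.6e-05). PRR34-AS1 had 37.4, 54.4 and 33.6 FPKM in the nuclear and 86.9, 124.9 and 81.8 in the cytoplasmic/ER libraries, again without overlap (N/C −1.23, SE 0.35, adjusted p = 0.0074). The ratios were −1.81 (adjusted p = 0.00022) and −1.25 (adjusted p = 0.033) without control replicate 2. OIP5-AS1, the conserved RNA known as Cyrano that binds miR-7, had 10.1, 32.7 and 7.90 FPKM against 48.5, 45.7 and 28.7. Its highest nuclear value came from the library labelled control nuclear replicate 2, where it exceeded the lowest cytoplasmic value, and N/C was −1.53 (SE 0.44, adjusted p = 0.0081). It was −2.05 without control replicate 2 (adjusted p = 0.00043) and −1.17 without control replicate 1 (adjusted p = 0.11). NUTM2B-AS1 (N/C −0.21, adjusted p = 0.44) and FGD5-AS1 (−0.40, adjusted p = 0.33) did not pass the test in either direction, nor did they without control replicate 2 (adjusted p = 0.19 and 0.050).

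The lowest N/C among called members was that of ZNF232-AS1, antisense to a zinc finger gene, with 2.79, 5.13 and 2.67 FPKM in the nuclear and 14.0, 19.1 and 12.6 in the cytoplasmic/ER libraries (N/C −2.12, SE 0.45, limma adjusted p = 0.00081). POC1B-AS1, NQO2-AS1 and STIM2-AS1 were close behind at −2.07, −2.07 and −2.06, with adjusted p of 0.019, 0.0014 and 0.012. POC1B-AS1 was listed at 0 in 1 of its nuclear libraries. FOCAD-AS1 had the lowest ratio of all, −2.29, but its cytoplasmic libraries ran from 0.520 to 3.50 FPKM and its nuclear libraries from 0 to 1.63, and it did not pass (SE 1.51, adjusted p = 0.24). At the nuclear end, TAB3-AS1 had 3.32, 1.06 and 2.13 FPKM in the nuclear libraries and was listed at 0 in all 3 cytoplasmic/ER libraries, so no fold is given (adjusted p = 0.0040). TMSB15B-AS1 had 4.52, 2.33 and 4.38 FPKM against 0.0875, 0.153 and 0.0736 (N/C 4.19, SE 1.31, adjusted p = 0.014). UGDH-AS1, of which 40.2% of 31-base words occur in other genes on the same strand, had 10.8, 38.2 and 15.9 FPKM against 3.66, 3.61 and 6.82 (N/C 2.04, SE 0.53, adjusted p = 0.0046). PENK-AS1 had N/C 1.94 (adjusted p = 0.0051), and SPON1-AS1, listed at 0 in all cytoplasmic/ER libraries and in 1 nuclear library, did not pass (adjusted p = 0.11). With control replicate 2 left out, ZNF232-AS1, POC1B-AS1, NQO2-AS1 and STIM2-AS1 were at −2.24, −2.69, −2.10 and −2.62 and still called, as were TAB3-AS1, TMSB15B-AS1 and PENK-AS1, whereas UGDH-AS1 fell to 1.37 (adjusted p = 0.056). At both ends, members with short transcripts or zeros had the largest errors.

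Of the members with a named role or partner of interest, MCM3AP-AS1 lies opposite the gene for GANP, the scaffold of the TREX-2 complex that TPR anchors. It had 2.23, 4.30 and 2.48 FPKM in the control nuclear libraries and 1.32, 2.0 and 2.14 in the cytoplasmic/ER libraries. The values did not overlap but the difference did not pass (N/C 0.66, SE 0.39, limma adjusted p = 0.19), while MCM3AP mRNA was nuclear (N/C 0.79, adjusted p = 0.012). HOXA-AS2 (N/C −0.74, adjusted p = 0.30), TMPO-AS1 (−0.88, adjusted p = 0.23) and SLC16A1-AS1 (0.35, adjusted p = 0.28) did not pass either. The mRNAs of TMPO, a lamina-associated protein, and SLC16A1, a lactate transporter, were both called nuclear (N/C 1.13 and 1.74, adjusted p = 0.0024 and 1.7e-05). Leaving out control replicate 2 changed none of these calls, and MCM3AP-AS1 was then at 0.46 (adjusted p = 0.36).

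By arrangement with the sense gene, the members' median N/C was −0.41 for the 149 overlapping head-to-head members, −0.34 for the 109 nested ones, −0.29 for the 61 tail-to-tail ones and −0.58 for the 20 head-to-head ones without overlap. It was −0.36 for the 3 tail-to-tail members without overlap, −0.79 for the 6 with no annotated partner and −1.18 for the 3 on the same strand. The first 4 medians were −0.49, −0.39, −0.47 and −0.56 without control replicate 2, and no test between arrangements was run. The 13 members annotated as single-exon RNAs had a median of −0.41, with 4 called cytoplasmic and 0 nuclear. The 10 members with a snoRNA or miRNA gene inside their span had a median of 0.07, with 2 called cytoplasmic (GPRC5D-AS1 at −0.83 and MIDEAS-AS1 at −1.17) and 1 nuclear (ENTPD1-AS1 at 0.73, a call lost without control replicate 2 at adjusted p = 0.065 by limma). With that replicate left out the medians were −0.37 for the single-exon members, with 2 called cytoplasmic, and −0.06 for those with a small RNA gene. Across the 351 members N/C had a Spearman rho of 0.13 with the span of the gene and 0.12 with the number of exons (0.06 and 0.05 without control replicate 2), given as a description over genes that share the same libraries.

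Each antisense lncRNA was next set against its partner, pair by pair, without a test of the pair difference. In control cells the antisense member of the median pair had an N/C 0.56 lower than its sense mRNA, in TPR A 0.54 lower and in TPR D 0.42 lower. The antisense RNA was the more cytoplasmic one in 170 to 197 of the 275 pairs in each culture. In 96 pairs it was lower in all 9 cultures, in 22 it was higher in all 9, and in 157 the cultures were mixed. Overlapping head-to-head pairs had medians of −0.38 for the antisense RNAs and 0.40 for the mRNAs over 133 pairs, against −0.45 and −0.15 over 72 nested pairs and −0.31 and 0.10 over 47 tail-to-tail pairs. The median pair differed by −0.59 without control replicate 2, and the medians were then −0.45 and 0.28 head-to-head, −0.42 and −0.06 nested and −0.48 and 0.17 tail-to-tail.

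**Figure D2:**
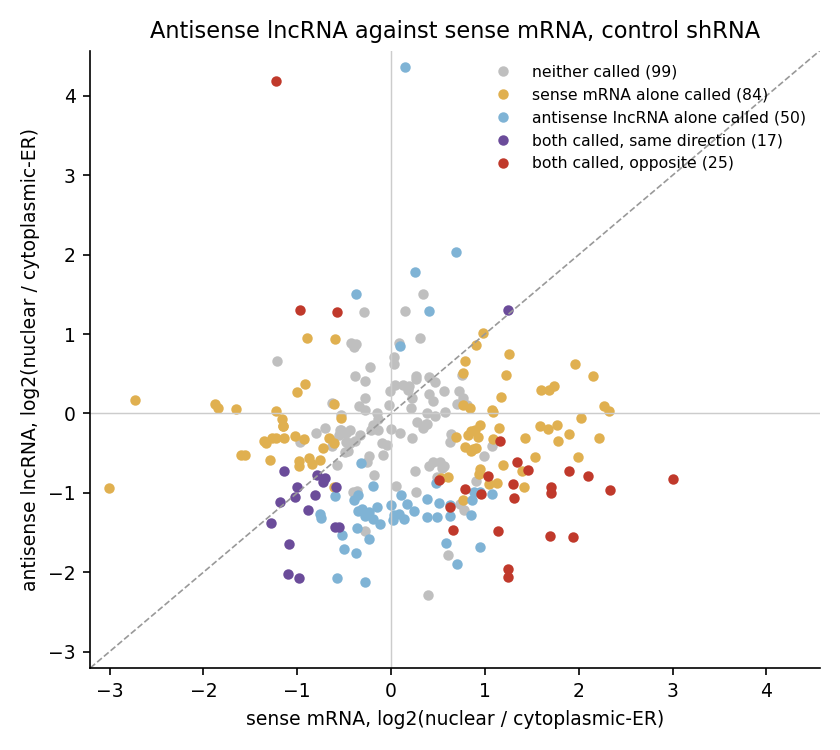
Log2 N/C in control cells of each sense mRNA (horizontal axis) and its antisense lncRNA (vertical axis), with 1 point for each of the 275 pairs, coloured by which of the genes was called, and a dashed line of equal ratio. More pairs lie under the line than over it, and of the pairs called on opposite sides 22 have a cytoplasmic antisense RNA and a nuclear mRNA and 3 the reverse. The antisense and sense classes as a whole differ in the same direction.

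In 22 pairs the antisense lncRNA was called cytoplasmic and its mRNA nuclear in control cells, of which 13 overlapped head-to-head and 3 lay head-to-head without overlap. In 20 of the 22 the antisense RNA had the lower N/C in all 9 cultures. The reverse held for 3 pairs, 16 pairs were cytoplasmic on both strands and 1 nuclear on both. In 50 pairs only the antisense RNA was called, in 84 only the mRNA and in 99 neither. As classes, 103 of the 351 members were called cytoplasmic and 15 nuclear, while more sense mRNAs were called nuclear than cytoplasmic. Genes paired without regard to locus would therefore lean the same way, and whether the pair counts exceed that was not tested. Without control replicate 2, both calls held for 6 of the 22, TENM3-AS1, TRIM52-AS1, URB1-AS1, STIM2-AS1, JMJD1C-AS1 and LRP4-AS1, and for 0 of the 3. The examples that follow were chosen after their values were seen.

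TRIM52-AS1 starts 19 bp from TRIM52, which codes for a RING-type protein, and runs the other way (chr5:180688170-180699308, plus strand). The antisense RNA had 7.46, 12.1 and 7.16 FPKM in the control nuclear and 31.6, 25.4 and 20.2 in the cytoplasmic/ER libraries (N/C −1.54, SE 0.37, limma adjusted p = 0.0023). The mRNA had 1.43, 2.62 and 2.27 FPKM against 0.462, 0.679 and 0.560 (N/C 1.70, adjusted p = 0.00021). Neither gene's fractions overlapped, and they lay in opposite order. The antisense call was lost without control replicate 1 (adjusted p = 0.052) and kept in the other 8 of 9 cases of leaving out a replicate. The difference between the strands was −3.24 ± 0.33 (SD of 3 control cultures) in log2 N/C, −2.93 ± 0.30 in TPR A and −3.12 ± 0.93 in TPR D.

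TENM3-AS1 overlaps the first part of TENM3, the gene of a teneurin adhesion protein, over 1263 bp. It had 14.2, 18.3 and 18.7 FPKM in the nuclear and 29.0, 22.4 and 38.5 in the cytoplasmic/ER libraries (N/C −0.79, SE 0.30, limma adjusted p = 0.043), and TENM3 mRNA had 24.2, 29.5 and 31.3 against 4.97, 5.13 and 10.7 (N/C 2.10, adjusted p = 0.00058). Again neither gene's fractions overlapped. The antisense N/C was −1.03 without control replicate 2 (adjusted p = 0.026), but its call was lost in 5 of 9 cases of leaving out a replicate, with adjusted p up to 0.22 (without control replicate 1). STIM2-AS1, nested in the gene for an ER calcium sensor, had 0.436, 4.19 and 2.10 FPKM against 5.36, 8.17 and 8.08, and STIM2 mRNA had 9.04, 9.10 and 7.85 against 3.46, 3.83 and 3.45 (N/C 1.25, adjusted p = 5.8e-05). The antisense RNA of BAZ2B, a bromodomain protein gene, was another such case (N/C −0.73 against 1.90 for the mRNA), though the antisense call was lost without control replicate 2 (adjusted p = 0.15).

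The 3 pairs of the reverse kind were TMSB15B-AS1, PTOV1-AS2 and PCSK6-AS1. PTOV1-AS2 had 2.99, 4.67 and 2.46 FPKM in the nuclear and 1.54, 1.23 and 1.04 in the cytoplasmic/ER libraries (N/C 1.31, limma adjusted p = 0.0047), and PTOV1 mRNA 309.6, 143.9 and 287.9 against 495.8, 447.1 and 437. PCSK6-AS1 had N/C 1.28 (adjusted p = 0.0061) and the mRNA of PCSK6, a proprotein convertase, −0.58 (adjusted p = 0.027). For PTOV1 the lowest nuclear value came from the library labelled control nuclear replicate 2. Leaving out the whole of control replicate 2 ended at least 1 call in each of these pairs, while PTOV1-AS2 (1.04, adjusted p = 0.031) and TMSB15B-AS1 kept theirs.

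The next comparison was of levels with and without TPR. As a group the antisense lncRNAs were a little higher in total RNA of TPR-depleted cells, with a median log2 difference from control of 0.24 (TPR A) and 0.27 (TPR D) against −0.01 for all genes in both. Of the 351 members, 244 and 265 had a difference above 0, whereas the median of all genes lay just below 0. The minimum mean is taken over all 27 libraries, of which more come from depleted than from control cells. That rule favours genes that rise on depletion, and how much of the shift it set was not tested. The medians were 0.08 and 0.12 without control replicate 2, so more than 0.1 of each shift went with that culture. In single libraries, measured from the control mean, the members' median was 0.05, −0.31 and 0.31 in control replicates 1, 2 and 3, then 0.29, 0.30 and 0.18 in TPR A and 0.56, 0.18 and 0.25 in TPR D. Control replicate 3 overlapped the depleted libraries. The other lncRNAs had medians of 0.29 and 0.36 and the sense mRNAs −0.02 and 0.01. In the nuclear fraction the members' medians were −0.09 and 0.01, and in the cytoplasmic/ER fraction −0.04 and −0.09. They were, without control replicate 2, 0.06 and 0.12 in the nuclear fraction, a change of sign for TPR A, and −0.01 and −0.06 in the cytoplasmic/ER fraction.

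**Figure D3:**
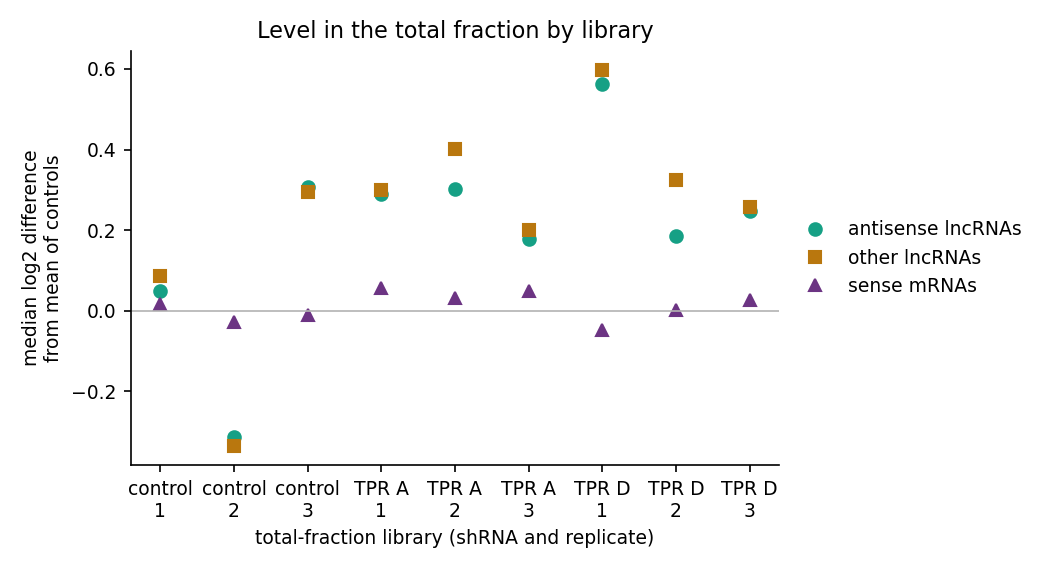
Median log2 difference from the mean of the control libraries (vertical axis) in each of the 9 total libraries (horizontal axis), for the antisense lncRNAs, other lncRNAs and sense mRNAs, with 1 point per class and library. The library labelled control total replicate 2 is the lowest for the antisense lncRNAs at −0.31, and control replicate 3 at 0.31 lies among the depleted libraries.

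Few single members passed the test. In total RNA limma called 2 members with TPR A (0.821% of all genes tested were called) and 2 with TPR D (0.753% of all genes). TPR A gave 1 call (0.903%) and TPR D 2 (0.479%) in nuclear RNA, and in cytoplasmic/ER RNA TPR A gave 2 (0.623%) and TPR D 0 (0.575%). In that last comparison 29 of the 351 members and 9.42% of all genes had an unadjusted p below 0.05. The shares of members called were therefore near those of all genes. The calls fell on 5 members, MMP20-AS1, BAZ2B-AS1, NR2F2-AS1, PDE7B-AS1 and PRSS23-AS1, and all were higher after depletion. Membership needs a mean above 1 FPKM over all 27 libraries, of which more come from depleted than from control cells. That rule favours genes that rise on depletion, so the shared direction can in part be set by it. Without control replicate 2, 0 members were called in total RNA with TPR A and in nuclear RNA with either shRNA, the 2 calls in cytoplasmic/ER RNA with TPR A remained, and in total RNA with TPR D the calls were BAZ2B-AS1, higher, and PRSS23-AS1, lower. In total RNA the replicate numbers paired control with TPR A, and with the replicate as a block 9 members were called there, 2.56% of the members against 2.59% of all genes under that fit: DHRS4-AS1, CCDC13-AS2, CLDN14-AS1, PDE7B-AS1, FLG-AS1, NR2F2-AS1, GASK1B-AS1 and MMP20-AS1 were higher and TIAM1-AS1 was lower. The TPR A and TPR D comparisons share the same control libraries.

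**Figure D4:**
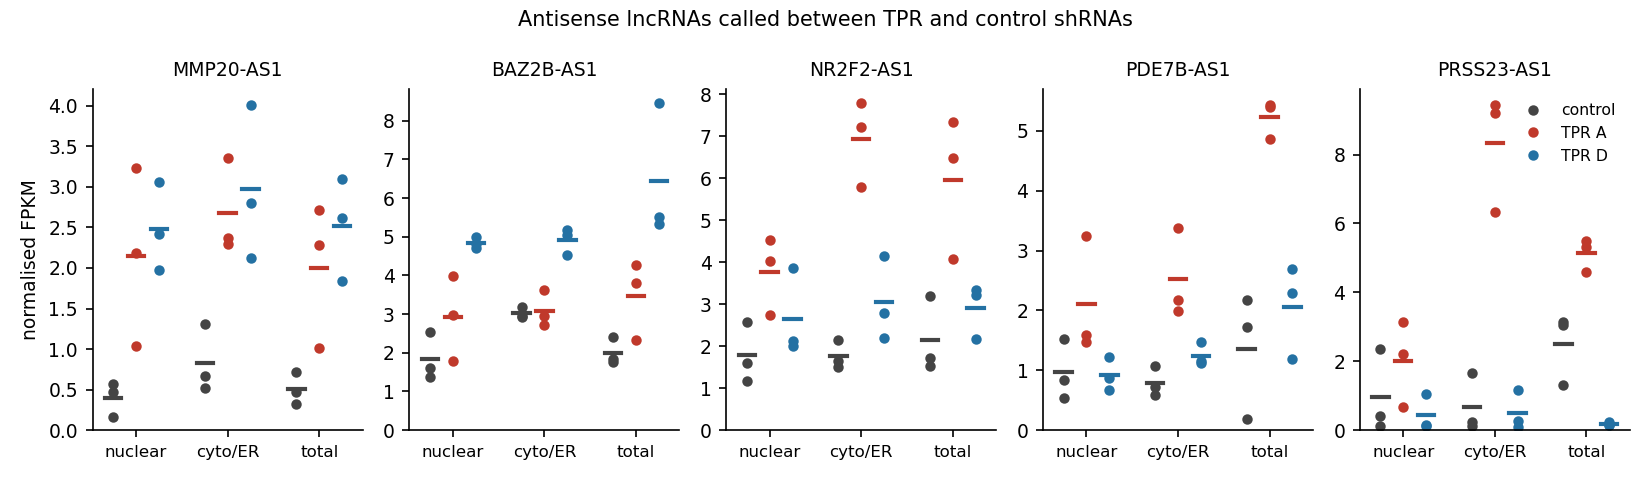
Normalised FPKM (vertical axis, linear, a separate scale for each gene) of the 5 members called in any comparison with control, in the nuclear, cytoplasmic/ER and total libraries, with 1 point per library, coloured by shRNA, and a bar at the mean of 3. MMP20-AS1 is higher with both shRNAs, BAZ2B-AS1 is highest with TPR D, and NR2F2-AS1 and PRSS23-AS1 are highest with TPR A.

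The sequences shown here are the ends of the 3 members called in more than 1 comparison, as annotated by GENCODE, with the poly(A) signal hexamer in capitals.
MMP20-AS1: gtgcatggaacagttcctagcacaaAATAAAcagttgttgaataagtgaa
BAZ2B-AS1: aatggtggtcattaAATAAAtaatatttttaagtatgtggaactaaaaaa
NR2F2-AS1: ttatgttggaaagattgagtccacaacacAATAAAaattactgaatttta
These transcripts were chosen for having a hexamer, and which isoform the libraries captured was not measured.

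MMP20-AS1, opposite the gene of an enamel matrix metalloproteinase and overlapping it over 18417 bp (chr11:102477647-102498801, plus strand), was the only member called with both shRNAs. In total RNA it had 0.326, 0.465 and 0.715 FPKM in control, 2.71, 2.28 and 1.01 in TPR A and 2.62, 1.84 and 3.10 in TPR D. In nuclear RNA it had 0.465, 0.161 and 0.571 in control, 3.23, 2.19 and 1.03 in TPR A and 1.97, 2.42 and 3.06 in TPR D. All depleted libraries of both fractions lay above all control libraries, with TPR A replicate 3 the nearest to them. In the cytoplasmic/ER fraction it had 0.521, 0.666 and 1.31 FPKM in control, 3.36, 2.29 and 2.38 in TPR A and 2.12, 2.81 and 4.01 in TPR D, and again the groups did not overlap. Its control libraries averaged below 1 FPKM, so it passed the minimum level only through the depleted libraries, where it was higher. The log2 difference was 2.15 in nuclear RNA with TPR A (limma adjusted p = 0.020), 2.46 in nuclear RNA with TPR D (adjusted p = 0.011) and 2.14 (SE 0.44) in total RNA with TPR D (adjusted p = 0.021). In total RNA with TPR A it was 1.75, with adjusted p = 0.061, or 0.040 with the replicate block. In the cytoplasmic/ER fraction it was 1.64 and 1.77, with adjusted p of 0.096 and 0.072. Control and TPR D libraries of equal replicate number deviated together only weakly in this fraction (correlations 0.026, 0.119 and 0.277). With the replicate block, used for that reason only as an alternative, the cytoplasmic/ER value with TPR D was called (limma adjusted p = 0.046). Each of the 3 calls depended on several replicates. The nuclear call with TPR A was lost in 4 of 9 cases of leaving out a replicate (adjusted p up to 0.18, and 0.14 without control replicate 2), the nuclear call with TPR D in 3 (up to 0.10, and 0.085 without control replicate 2) and the total call with TPR D in 5 (up to 0.13, and 0.052 without control replicate 2). MMP20 mRNA was below the minimum level and was not tested.

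BAZ2B-AS1, which overlaps the 5′ end of BAZ2B over 1278 bp (chr2:160471803-160475148, plus strand), had 1.83, 1.77 and 2.41 FPKM in control total RNA, 8.46, 5.52 and 5.32 in TPR D and 4.27, 3.79 and 2.33 in TPR A. The TPR D libraries were all above the control, whereas TPR A replicate 3 overlapped it. In nuclear RNA it had 1.38, 1.62 and 2.54 in control, 5.00, 4.71 and 4.82 in TPR D and 3.99, 2.99 and 1.79 in TPR A. With TPR D the log2 difference was 1.62 (SE 0.27, limma adjusted p = 0.0045) in total and 1.39 (adjusted p = 0.019) in nuclear RNA, and with TPR A 0.73 (adjusted p = 0.25) and 0.61 (adjusted p = 0.37). The difference between the shRNAs was not tested. Without control replicate 2 the adjusted p with TPR D was 0.034 in total and 0.091 in nuclear RNA, and without TPR D replicate 1 the total value was 0.072. The total call was lost in that 1 of 9 cases of leaving out a replicate and the nuclear call in 5. BAZ2B mRNA did not pass in total RNA (0.72 with TPR D, adjusted p = 0.40), with 20.9, 11.5 and 21.4 FPKM in control and 26.95, 29.7 and 28.8 in TPR D.

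Among the comparisons of level between a TPR shRNA and control, BAZ2B-AS1 was the member with the smallest adjusted p. The 300 bases around its start (250 before and 50 after it, chr2:160471553-160471852, plus strand, GRCh37) are therefore printed. TATAAA (here on the other strand, as TTTATA) and CCAAT are in capitals.
BAZ2B-AS1 promoter: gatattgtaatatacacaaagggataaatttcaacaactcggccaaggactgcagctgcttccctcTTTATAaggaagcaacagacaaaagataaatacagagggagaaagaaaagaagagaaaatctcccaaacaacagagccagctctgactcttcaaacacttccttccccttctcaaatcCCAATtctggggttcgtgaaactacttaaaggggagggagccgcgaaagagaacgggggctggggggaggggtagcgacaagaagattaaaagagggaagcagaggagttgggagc
The window held no GGGCGG. The same window of MMP20-AS1 is printed for comparison (chr11:102477397-102477696, plus strand) and held none of these letters on either strand.
MMP20-AS1 promoter: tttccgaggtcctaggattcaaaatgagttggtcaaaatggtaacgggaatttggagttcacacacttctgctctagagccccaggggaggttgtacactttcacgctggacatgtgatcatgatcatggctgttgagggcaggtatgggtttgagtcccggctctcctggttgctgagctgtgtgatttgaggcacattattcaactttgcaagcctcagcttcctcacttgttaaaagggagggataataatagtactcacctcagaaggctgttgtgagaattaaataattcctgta
Searched on both strands, CCAAT occurred in 31.6% of the 351 members' windows, 31.2% of the sense genes' and 35.6% of those of 14201 tested genes. GGGCGG occurred in 53.6%, 53.7% and 59.6%, and TATAAA in 7.69%, 8.46% and 7.71%. A match is a description of the letters and not of a bound factor, and the motifs do not overlap one another.

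NR2F2-AS1, opposite the gene of the nuclear receptor COUP-TFII and overlapping its 5′ end over 1424 bp (chr15:96653269-96870590, minus strand), was higher with TPR A. In the cytoplasmic/ER fraction it had 2.14, 1.64 and 1.5 FPKM in control, 7.79, 7.21 and 5.78 in TPR A and 2.79, 4.15 and 2.20 in TPR D. In total RNA it had 1.71, 1.52 and 3.19 in control, 6.47, 7.33 and 4.07 in TPR A and 3.22, 3.35 and 2.17 in TPR D. The TPR A libraries lay above the control in both fractions, and the TPR D libraries overlapped the control in total RNA. With TPR A the log2 difference was 1.93 (SE 0.34, limma adjusted p = 0.0056) in the cytoplasmic/ER fraction and 1.47 (adjusted p = 0.044) in total RNA, and with TPR D it was 0.73 (adjusted p = 0.50) and 0.48 (adjusted p = 0.53). Without control replicate 2 the TPR A values had adjusted p of 0.029 and 0.24. Without TPR A replicate 1 or 2 the cytoplasmic/ER value had adjusted p of 0.066 and 0.055, and it was kept in the other 7 of 9 cases. The total value was lost in 7 of 9, with adjusted p up to 0.28. NR2F2 mRNA had 39.3, 42.5 and 42.2 FPKM in control total RNA and 49.7, 59.8 and 46.0 in TPR A (log2 difference 0.32, adjusted p = 0.52).

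PDE7B-AS1, tail-to-tail with the gene of a cAMP phosphodiesterase, had 1.72, 0.180 and 2.18 FPKM in control total RNA, 5.43, 4.86 and 5.39 in TPR A and 1.18, 2.29 and 2.69 in TPR D. The TPR A libraries lay above the control, and the lowest control value came from the library labelled control total replicate 2. The log2 difference with TPR A was 2.34 (SE 0.54, limma adjusted p = 0.045) and without control replicate 2 it was 1.39 (adjusted p = 0.16). The call was lost in 8 of 9 cases of leaving out a replicate, with adjusted p up to 0.21. PRSS23-AS1, nested with a serine protease gene, had 0.126, 1.65 and 0.238 FPKM in control cytoplasmic/ER RNA, 6.34, 9.44 and 9.21 in TPR A and 1.16, 0.0955 and 0.260 in TPR D. Only with TPR A did all libraries lie above the control, by a log2 difference of 4.02 (SE 0.83, adjusted p = 0.023), which was 4.91 without control replicate 2 (adjusted p = 0.0021) and 3.43 without control replicate 1 (adjusted p = 0.12), and which lost its call in 5 of 9 cases of leaving out a replicate. In total RNA it had 3.14, 1.32 and 3.06 FPKM in control, 5.5, 4.58 and 5.30 in TPR A and 0.141, 0.148 and 0.225 in TPR D. The TPR D libraries were the lowest, with a log2 difference of −3.18 (adjusted p = 0.072), or −3.57 (adjusted p = 0.031) without control replicate 2. With the replicate block, which is only an alternative here because control and TPR D total libraries were not paired, it passed (adjusted p = 0.048). PRSS23 mRNA itself was at 0.177, 0.425 and 0.465 FPKM in control total RNA and at 0.988, 1.09 and 3.47 in TPR D, where its log2 difference of 1.94 did not pass (adjusted p = 0.13).

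The last comparison was the one the study was built for, the change of N/C on TPR depletion. A rise would mean that the nuclear share of a transcript grew. limma called 0 of the 351 members with TPR A, with TPR D and with both shRNAs together, and 0 differed between the shRNAs (0% of all genes in each of the 4). At unadjusted p below 0.05 were 12 of 351 members with TPR A and 6 with TPR D, against 1.47% and 0.821% of all genes. There were 12 with both shRNAs and 7 between the shRNAs, against 1.72% and 0.335% of all genes. In each the members' share was above that of all genes, a difference that was not tested. The all-gene shares lay below the 0.05 that a calibrated test gives when nothing changes. The fit was therefore conservative for this contrast, and the 0 calls do not show that N/C was unchanged. The members' median change was −0.02 (TPR A), 0.08 (TPR D) and 0.03 (both), with a median SE of 0.52, 0.52 and 0.45 for a single member. With the culture as a block, which uses the pairing of the fractions within a culture, the median SE was 0.45, 0.45 and 0.39 and limma again called 0 members and 0 genes. Without control replicate 2 the median changes were 0.09, 0.16 and 0.11, a change of sign for TPR A.

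The lowest unadjusted p for both shRNAs together was that of DMTF1-AS1, opposite the gene of a Myb-like transcription factor. It had 0.643, 0.728 and 0.659 FPKM in the nuclear and 2.82, 1.90 and 4.59 in the cytoplasmic/ER libraries of control cells. In TPR A the nuclear values were 2.34, 1.5 and 1.34 and the cytoplasmic/ER values 1.26, 0.259 and 2.39, and in TPR D they were 1.66, 1.70 and 0.958 and 2.0, 2.95 and 1.29. The nuclear values of depleted cells lay above those of the control, and the cytoplasmic/ER values of the 3 groups overlapped. Its N/C change was 2.09 (SE 0.71, unadjusted p = 0.0071), with a limma adjusted p of 0.999. The next were NQO2-AS1 (1.58), DNAJC27-AS1 (1.46), ILRUN-AS1 (0.88), TMSB15B-AS1 (−4.02), KMT2E-AS1 (1.08), NUTM2B-AS1 (−0.61), MALT1-AS1 (0.82), SMIM2-AS1 (−1.92) and MYLK-AS1 (1.07), all with adjusted p of 0.999. Of these 10, 7 had a higher and 3 a lower N/C in depleted cells, and none passed. The size of the change of TMSB15B-AS1 rests on control cytoplasmic/ER values near the 0.1 added before the log.

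Members with a short span had slightly higher changes than long ones. The median change with both shRNAs was 0.15 for the 187 members spanning under 10 kb and −0.14 for the 47 over 50 kb, and it was 0.21 for the 123 members with more than 1 and up to 2 exons (the median over transcripts) and −0.23 for the 30 with over 4. The 13 single-exon members had a median change of 0.23, with 11 of 13 above 0. Measured from the control mean, their median N/C was 0.04, 0.04 and −0.01 in the control cultures, 0.24, 0.32 and 0.19 in TPR A and 0.29, 0.14 and 0.25 in TPR D. All 6 depleted cultures lay above the 3 control cultures, no single-exon member passed the test, and without control replicate 2 their median change was 0.19. The control values centre near 0 by construction, and the 13 genes share the same libraries. In the same measure the medians of all 351 members were −0.08, 0.13 and −0.06 in control cultures. They were 0.19, 0.03 and −0.19 in TPR A and 0.11, 0.10 and 0.10 in TPR D. Across members the Spearman rho was −0.30 with the span and −0.29 with the number of exons (n = 351), as a description over genes that share the same libraries. Without control replicate 2 the medians were 0.16 and 0.10 by span and 0.21 and −0.01 by exons, so the sign for members over 50 kb turned with that culture. The rho values were then −0.18 and −0.16.

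**Figure D5:**
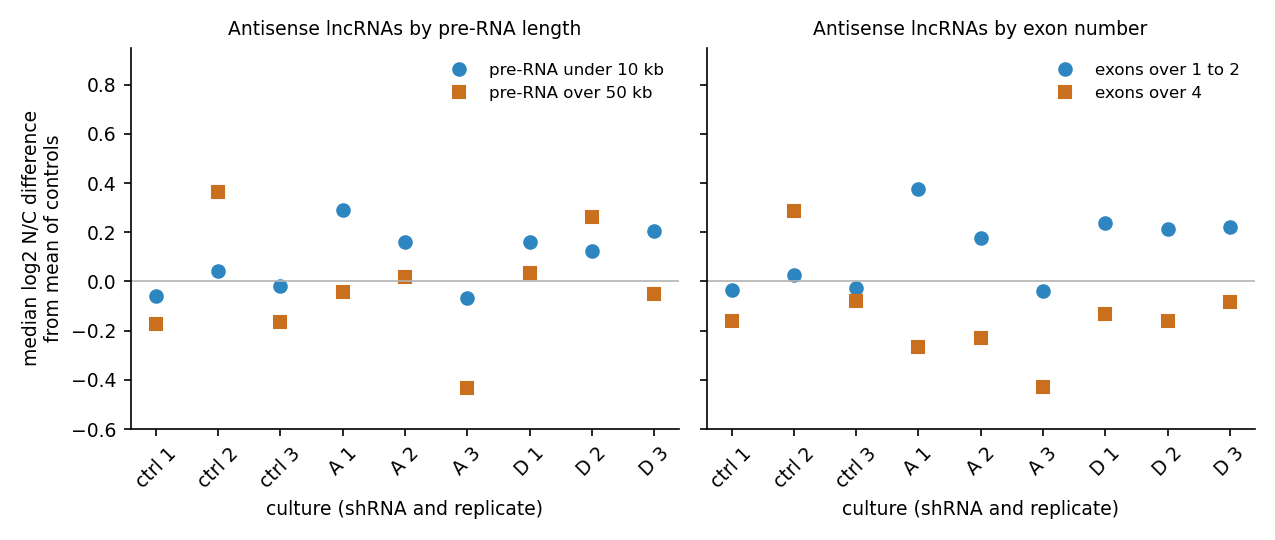
Median log2 N/C of antisense lncRNAs, as the difference from the mean of the control cultures (vertical axis), in each of the 9 cultures (horizontal axis), for members spanning under 10 kb or over 50 kb (left) and with over 1 to 2 or over 4 exons (right). Among the control cultures, replicate 2 is the highest for members over 50 kb (0.36) and for those with over 4 exons (0.29).

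MCM3AP-AS1 had 2.77, 2.35 and 1.58 FPKM in the nuclear and 2.28, 2.10 and 1.57 in the cytoplasmic/ER libraries of TPR A, and 2.62, 3.30 and 2.73 against 1.94, 2.86 and 1.16 in TPR D. These overlapped the control values given above in both fractions. OIP5-AS1 had a mean N/C of −1.71 ± 0.36 (SD of 3 cultures) in TPR A and −1.75 ± 0.48 in TPR D, against −1.53 in control. TMEM132D-AS1 was at −1.52 ± 0.24 and −1.68 ± 0.24, less cytoplasmic than in control. Its control value was −1.76, and ran from −1.81 to −1.73 with a replicate left out. TRIM52-AS1 was at −1.57 ± 0.47 and −1.48 ± 0.30, against −1.54 in control. The means of OIP5-AS1, TMEM132D-AS1 and TRIM52-AS1 all stayed on the cytoplasmic side. None of their changes was called, which does not show that N/C was unchanged.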

How the data were processed

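Poly(A)+ RNA of 27 libraries (3 shRNAs, 3 fractions, 3 replicates) had been sequenced from directional libraries. The authors quantified reads with Salmon, imported them with tximport against Gencode on hg19 and deposited FPKM per gene; read counts were not analysed here, and the strand setting of Salmon is not given in the sources used here. Groups came from the labels. Symbols, types, coordinates and transcript sequences came from GENCODE 44 on GRCh37, which matched 32776 of 34464 gene IDs. The authors' Salmon index was built from an earlier Gencode release. Exon numbers, spans, transcript lengths, shared 31-base words, isoform counts and printed ends are those of GENCODE 44. They may differ from the transcripts that gave the FPKM.

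Genes with a mean above 1 FPKM outside the mitochondrial genome (14611) were scaled by median-of-ratios factors (0.954 to 1.06), transformed as log2(FPKM + 0.1) and fitted with limma 3.58.1 in R 4.3.3 (9 groups, trended prior, Benjamini-Hochberg adjustment over all genes tested, threshold 0.05). FPKM of named genes in single libraries are given after this scaling, and means over all libraries, marker ranges and mitochondrial shares from the values as deposited. Fold changes are on this scale, which understates changes of low genes. The count test that the study names needs read counts, so limma was used. The fit was tested on simulated data with independent noise and large planted changes. That test does not cover small N/C changes or the shared deviations of the fractions of a culture. Tables came from Python 3.11.15 (pandas 2.3.3, scipy 1.17.1, numpy 2.4.6) and plots from matplotlib 3.10.9. Depth was judged from the steps between low FPKM values.

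The nuclear and cytoplasmic/ER libraries of 1 culture deviated together from their group means (correlations 0.223 to 0.469). Total libraries of equal replicate number did so for control and TPR A (0.324, 0.184 and 0.137) but not for control and TPR D (0.048, −0.010 and 0.198). Between TPR A and TPR D they did in the cytoplasmic/ER (0.398, 0.597 and 0.439) and nuclear libraries (0.131, 0.256 and 0.266) but not in the total libraries (0.236, −0.067 and 0.513). Alternatives were other pseudocounts and minimums, deposited values without scaling, no trend, a replicate or culture block, replicates 2 and 3 only (replicate 1 is labelled in another style), 1 TPR shRNA at a time and each replicate left out.

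The members and lists were chosen with earlier results of these data known. Named were the 10 most abundant members, those called in any comparison with control (at most 8 each), the 5 highest and 5 lowest N/C, the 10 lowest p for the N/C change, and listed members with a partner of interest, of which CDKN2B-AS1 and ZNRD1-AS1 were not members. PECAM1 was not used here.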

Additional observations from a re-analysis of the deposited data

How the results depend on the processing

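The control N/C count of 118 called members (33.6% of members, 39.4% of all genes) was 44 with a minimum of 5 FPKM (41.5% of the 106 members then tested, 43.7% of all genes) and 48 with replicates 2 and 3 only (13.7% of members, 22.1% of all genes), and 59 to 117 when each replicate was left out. In total RNA the 2 calls with TPR A became 1 with a pseudocount of 0.01, 0 without a minimum, with a minimum of 5 FPKM, with replicates 2 and 3 only and with 1 TPR shRNA in the fit, 7 without the trend, and 0 to 11 with a replicate left out. The 2 calls with TPR D became 4 with a pseudocount of 1, 5 without the trend, 0 with a minimum of 5 FPKM and with replicates 2 and 3 only, and 0 to 5 with a replicate left out. In nuclear RNA the 1 call with TPR A became 2 without the trend, 0 with 1 TPR shRNA, with 5 FPKM and with replicates 2 and 3 only, and 0 to 1 with a replicate left out; the 2 with TPR D became 0 with 5 FPKM and with replicates 2 and 3 only, and 0 to 2 with a replicate left out. In cytoplasmic/ER RNA the 2 calls with TPR A became 0 with 5 FPKM and with replicates 2 and 3 only, and 0 to 2 with a replicate left out, and the 0 with TPR D became 0 to 2. No N/C change of a member was called under any setting run. Among all genes at most 2 were called in a setting, for both shRNAs without control replicate 1. TPR mRNA was at −2.57 (TPR A) and −2.16 (TPR D) on the log2 scale with replicates 2 and 3 only, no longer past the threshold, and its change ran from −2.68 to −2.46 and from −2.65 to −2.21 with a replicate left out.

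With the replicate block, calls numbered 136 for control N/C (45.7% of all genes called), 9 and 13 in total RNA (2.59% and 3.16%), 4 and 2 in nuclear RNA (2.57% and 1.57%) and 5 and 4 in cytoplasmic/ER RNA (2.24% and 1.79%) for TPR A and TPR D, and 141 for control N/C with the culture as block (46.99%), where SERTAD4-AS1 (adjusted p = 0.0072), MMP20-AS1 (0.019) and TMPO-AS1 (0.036) were among the added calls by limma. The cause of these changes was not tested, beyond the smaller number of genes or samples where a setting leaves some out. No called value of a named gene turned its sign, but without control replicate 2 the medians over members did so for the nuclear level and the N/C change with TPR A and for the N/C change of members over 50 kb, as given above. Over all settings, the counts of calls and TPR stayed within their limits in 179 cases, moved in 56 and lost the call in 2, and of values of single genes 737 stayed on their side of the threshold, 71 lost and 8 gained a call, and 10 moved. Depth limits members under 2 FPKM most.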
